A study of Homo sapiens with 8 samples.

Results

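Human mitochondrial DNA carries 37 genes in GENCODE release 29, of which 13 encode proteins, all of them subunits of the respiratory chain or of ATP synthase. The 10 mRNAs described here are MT-ND1, MT-ND2, MT-ND3, MT-ND4 and MT-ND5 of complex I, MT-CYB of complex III, MT-CO1, MT-CO2 and MT-CO3 of complex IV, and MT-ATP6 of complex V. They were chosen by gene name among the annotated genes of the deposited tables, 10 of 20565, and had 9821 reads in all. The reads came from Oxford Nanopore direct RNA sequencing, which passes the RNA itself through a pore. They were made for a comparison with PacBio reads through TALON, software that matches long reads to transcript models. The 8 libraries came from 3 established and, as far as the labels say, untreated human lines: GM12878, a B-lymphoblastoid line (3 libraries), HepG2, from a hepatocellular carcinoma (3 libraries), and K562, a myelogenous leukaemia line (2 libraries). The labels give K562 the same lymphoblastoid source wording as GM12878, but 6 B cell markers summed to 3.45 to 6.49 CPM (read counts scaled to library size) in its libraries against 10834 to 11514 in GM12878. Its own 6 erythroid and leukaemia markers summed to 32966 to 34921 CPM. Each line is 1 cell line, and the labels do not say whether its libraries came from separate cultures, so the tests take their error from a spread between libraries that may be only technical.

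As background, both strands of mitochondrial DNA are transcribed into long precursors, and tRNAs that lie between the coding genes are cut out to free most mRNAs. The mitochondrial poly(A) polymerase MTPAP then adds a short tail, which for several of these mRNAs also completes a stop codon that the DNA leaves unfinished. Nuclear genes supply the other subunits of the same complexes, and the proteins that transcribe, cut, tail and translate these RNAs.

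The ends of the reference transcripts show this arrangement. The tail, which completes a stop codon only where the DNA leaves it unfinished, is also what nanopore direct RNA adapters commonly attach to. All 10 genes lie on the plus strand of the mitochondrial chromosome (M, GRCh38), and 6 of them end with 1 or 2 bases past the last whole codon, with 1 base in 5 and 2 bases in 1. In the following last 30 bases of each GENCODE 29 transcript, capitals mark the final codon or the bases left of it; the first 3 are open ends and the other 3 whole codons.
MT-CO3 (9961 to 9990): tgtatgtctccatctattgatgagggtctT
MT-CYB (15858 to 15887): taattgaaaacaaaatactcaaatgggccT
MT-ND1 (4233 to 4262): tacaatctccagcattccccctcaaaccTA
MT-ATP6 (9178 to 9207): gtaagcctctacctgcacgacaacacaTAA
MT-CO1 (7416 to 7445): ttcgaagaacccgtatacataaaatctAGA
MT-ND5 (14119 to 14148): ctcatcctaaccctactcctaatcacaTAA
The last base of MT-ATP6 is the first base of MT-CO3, which begins as shown here, with the start codon in capitals.
MT-CO3 start (9207 to 9236): ATGacccaccaatcacatgcctatcatata
The next annotated gene lay on the same strand for 8 of the 10 and on the other strand for 2, MT-CO1 and MT-ND5, which are followed by MT-TS1 and MT-ND6. MT-ATP6 overlaps the end of MT-ATP8 by 46 bases and MT-ND4 that of MT-ND4L by 7. Reads of such joined messages can only be counted on 1 of the 2 genes, and MT-ATP8 and MT-ND4L, both shorter than the shortest known model of 300 bases, had 0 rows in the tables.

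The libraries held 70374 reads in GM12878 replicate 3 to 461497 in HepG2 replicate 1. GM12878 replicate 3 stood apart from the other libraries of its line in the mitochondrial reads. K562 has only 2 libraries, which differed from each other in these reads, so neither can be named as the one apart. Changes of a member's call without GM12878 replicate 3, HepG2 replicate 3 or K562 replicate 1 are given with that member. The ratios and the rRNA fits were not repeated without these libraries. Over all genes, libraries of a line differed with a chi-square per degree of freedom of 1.23 to 1.39 for the GM12878 pairs and 3.53 for the K562 pair. For HepG2 it was 1.40 between replicates 1 and 2, and 2.09 and 2.22 for the pairs with replicate 3. No library was thus counted as a repeat. Between the 8 libraries the mean length of the models read varied from 1251 to 1332 bases and the share of reads on known models from 37.6% to 47.4%.

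The 10 mRNAs took the largest share of reads in HepG2 on average and the smallest in K562. HepG2 libraries gave 0.669%, 0.673% and 0.540% of their reads to them, in replicate order, with a mean of 0.627% ± 0.0757 (SD, n = 3). GM12878 libraries gave 0.482%, 0.391% and 0.651%, with a mean of 0.508% ± 0.132 (n = 3), or 0.437% without replicate 3. K562 libraries gave 0.157% and 0.348%, with a mean of 0.252% ± 0.135 (n = 2). The K562 libraries lay below all others, while GM12878 and HepG2 overlapped through GM12878 replicate 3 and HepG2 replicate 3. The Wilson 95% interval, which covers counting error only, was 0.138% to 0.179% in K562 replicate 1 and 0.594% to 0.713% in GM12878 replicate 3.

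Without MT-CO3 the picture of GM12878 replicate 3 changed. The other 9 mRNAs took 0.212% of that library, against 0.312% and 0.225% in replicates 1 and 2, so its high total lay in MT-CO3. In HepG2 they took 0.365%, 0.395% and 0.242%, and in K562 0.0413% and 0.115%, again the lowest of the 8. The mitochondrial rRNAs MT-RNR1 and MT-RNR2, which form the mitochondrial ribosome and are not members, moved with these libraries. They had 827, 624 and 41 reads in GM12878 replicates 1 to 3, which is 0.545%, 0.354% and 0.0583% of each library. In K562 they were 0.0238% and 0.0590%, and in HepG2 0.312%, 0.311% and 0.190%. GM12878 replicate 3 thus sat with K562 in rRNA share and with HepG2 in mRNA share. The part of these library differences in the results was not tested. Less mitochondrial RNA per cell and a smaller share of cells cannot be told apart from a bulk library.

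**Figure D1:**
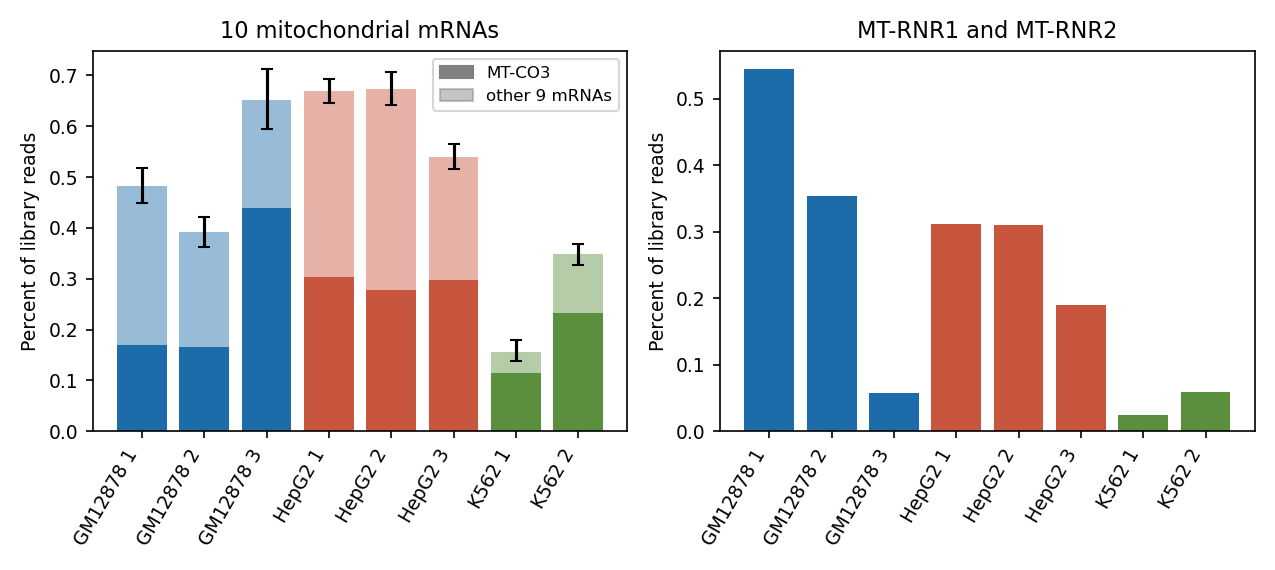
Percent of library reads on the 10 mitochondrial mRNAs (left; dark, MT-CO3; pale, the other 9; bars, Wilson 95% interval of the sum) and on the 2 mitochondrial rRNAs (right), 1 column per library. GM12878 replicate 3 has 0.651% on the mRNAs but 0.0583% on the rRNAs, and both K562 libraries are low on both sides.

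Complex IV, cytochrome c oxidase, passes electrons to oxygen, and MT-CO1, MT-CO2 and MT-CO3 encode its core. MT-CO3 (ENSG00000198938.2, positions 9207 to 9990, 784 bases) was the most abundant of the 10 in every library. It stood at 1713, 1699 and 4344 CPM in GM12878, 4154, 3651 and 3799 CPM in HepG2, and 1071 and 2515 CPM in K562. GM12878 replicate 3 was above every other library, replicates 1 and 2 were below every HepG2 library, and K562 overlapped GM12878 but not HepG2. MT-CO3 was not called in any comparison in the main analysis, with adjusted p of 0.343, 0.597 and 0.163 by edgeR's quasi-likelihood test for HepG2 against GM12878, K562 against GM12878 and K562 against HepG2. Without GM12878 replicate 3 it was called higher in HepG2, with a log2 change of 1.16 ± 0.25 (SE; edgeR adjusted p 0.000283), and its log2 change in K562 against GM12878 turned from -0.48 to 0.16 (0.086 without K562 replicate 1). With no filter on low counts it was called lower in K562 against HepG2 (-1.03).

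MT-CO1 (ENSG00000198804.2, positions 5904 to 7445, 1542 bases), the catalytic subunit, was second per kilobase in all 3 lines. Its levels were 780, 640 and 844 CPM in GM12878, 1380, 1638 and 1153 CPM in HepG2, and 221 and 455 CPM in K562. The 3 lines did not overlap, with K562 lowest and HepG2 highest, and GM12878 replicate 3 was not apart here. The log2 change was 0.89 ± 0.21 in HepG2 against GM12878, below the threshold of 1 although edgeR's adjusted p was 0.000277, and it passed with no filter (1.01) and without HepG2 replicate 3 (1.13). It fell by 1.09 ± 0.25 in K562 against GM12878 (edgeR adjusted p 0.000479). In K562 against HepG2 it fell by 1.99 ± 0.25 (edgeR adjusted p 1.87e-09). The K562 call against GM12878 ended with no filter on low counts (-0.91) and with known models only (-0.999). It also ended, at log2 changes of -0.98, -0.95 and -0.65, without GM12878 replicate 1, GM12878 replicate 3 or K562 replicate 1, and the adjusted p stayed below the threshold each time.

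MT-CO2 (684 bases) carries the site where electrons enter from cytochrome c. It had 34, 15 and 4 reads in GM12878, 57, 26 and 31 in HepG2, and 0 and 27 in K562. The 0 reads in K562 replicate 1 allow up to 19.5 CPM, 3 counts of that library, against 93.1 CPM in replicate 2. The K562 libraries were both below HepG2 and overlapped GM12878, and MT-CO2 was not called in any of the 3 comparisons in the main analysis, with log2 changes of 0.09, -1.21 and -1.31. The K562 values rested on single libraries. Without K562 replicate 1 they were -0.46 against GM12878 and -0.54 against HepG2. Without K562 replicate 2, which leaves the library with 0 reads, both were called (edgeR adjusted p 1.69e-06 and 1.00e-07), and the fitted size is then no bound. MT-CO2 was also called in both with the replicate number as a block (-1.32 and -1.52), and against HepG2 with no filter on low counts (-1.24). With library totals in place of TMM scaling the change in HepG2 against GM12878 turned to -0.31, so no direction is given for it.

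Complex III hands electrons from ubiquinol to cytochrome c, and MT-CYB (ENSG00000198727.2, positions 14747 to 15887, 1141 bases) is its cytochrome b. MT-CYB stood at 447, 588 and 408 CPM in GM12878, 1072, 1009 and 383 CPM in HepG2, and 32.4 and 176 CPM in K562. HepG2 replicate 3 was below all GM12878 libraries while its fellow libraries were above them, and K562 was below every other library. It fell by 2.80 ± 0.70 on the log2 scale in K562 against HepG2 (edgeR adjusted p 0.0153). The log2 change of -2.06 ± 0.72 in K562 against GM12878 did not pass, at an edgeR adjusted p of 0.0775, and that of 0.75 ± 0.54 in HepG2 against GM12878 had an edgeR adjusted p of 0.290. Without HepG2 replicate 3 the latter was 1.20 and was called. The change in K562 against GM12878 was called under 6 of the 8 other settings, namely library totals, no filter, DESeq2, the replicate block, known models only and only the 2 lines compared, with adjusted p from 2.58e-12 to 0.0435. It was also called without K562 replicate 1 (log2 change -1.43) and without K562 replicate 2 (-3.86).

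Complex V, ATP synthase, has MT-ATP6 (ENSG00000198899.2, positions 8527 to 9207, 681 bases) as part of its proton channel. MT-ATP6 was read 60, 30 and 11 times in GM12878, 155, 54 and 66 times in HepG2, and 2 and 13 times in K562, which is 400.0, 175 and 155 CPM, 459, 285 and 243 CPM, and 13.0 and 44.8 CPM. GM12878 and HepG2 overlapped, and K562 lay below both. MT-ATP6 fell by 2.92 ± 0.50 on the log2 scale in K562 against GM12878 (edgeR adjusted p 3.54e-05), the largest drop among the 9 tested members in that comparison. In K562 against HepG2 it fell by 3.31 ± 0.47 (edgeR adjusted p 1.25e-06). Its log2 change of 0.40 in HepG2 against GM12878 did not pass and was -0.02 with library totals.

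Complex I takes electrons from NADH, and the MT-ND genes encode its membrane arm. MT-ND1 (ENSG00000198888.2, positions 3307 to 4262, 956 bases) lies where ubiquinone enters. It was at 327, 204 and 70.3 CPM in GM12878, 480, 502 and 273 CPM in HepG2, and 26.0 and 41.4 CPM in K562. GM12878 replicate 3, with 5 reads, was low but still above both K562 libraries. MT-ND1 had the largest change among the 9 tested members in K562 against HepG2, a fall of 3.53 ± 0.45 on the log2 scale (edgeR adjusted p 1.36e-07), and fell by 2.59 ± 0.49 in K562 against GM12878 (0.000100). In HepG2 against GM12878 its log2 change of 0.94 ± 0.31 (edgeR adjusted p 0.0122) missed the fold threshold. It passed with DESeq2 (1.04), no filter (1.04), the replicate block (1.08) and known models only (1.08), and without GM12878 replicate 1 (1.42) or HepG2 replicate 3 (1.29). Without GM12878 replicate 3 it was 0.64, at an edgeR adjusted p of 0.0769.

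MT-ND5 (ENSG00000198786.2, positions 12337 to 14148, 1812 bases), a pump subunit of the same arm, was the one member called in all 3 comparisons. It stood at 227, 169 and 225 CPM in GM12878, 503, 660 and 343 CPM in HepG2, and 51.9 and 65.5 CPM in K562. No 2 lines overlapped, and GM12878 replicate 3 lay within its line. It rose by 1.29 ± 0.26 on the log2 scale in HepG2 against GM12878 (edgeR adjusted p 3.58e-05), fell by 1.75 ± 0.37 in K562 against GM12878 (0.000162) and fell by 3.04 ± 0.34 in K562 against HepG2 (5.15e-11). With library totals the first of these was 0.88 and was no longer called. Only 12 of the 494 MT-ND5 reads were on its known model, so these changes rest on other models, whose positions are not given. With known models only, MT-ND5 was too low to test.

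MT-ND4 (positions 10760 to 12137, 1378 bases) and MT-ND2 (positions 4470 to 5511, 1042 bases) are pump subunits too, and both were higher in K562 replicate 2 than in replicate 1. MT-ND4 was at 580.0, 320.0 and 309 CPM in GM12878, 728, 782 and 450 CPM in HepG2, and 19.5 and 283 CPM in K562, from 3 and 82 reads. Both K562 libraries were below every other library, but the spread between them was wide, and MT-ND4 was not called, with edgeR adjusted p of 0.321 against GM12878 and 0.0920 against HepG2. Against GM12878 the log2 change was -0.49 without K562 replicate 1, not called, and -4.33 without K562 replicate 2, called. Against HepG2 it was called without K562 replicate 1 (-1.14), without K562 replicate 2 (-5.04), with the replicate block (-2.22) and with no filter (-1.87). MT-ND2 had 23 reads, 19 reads and 1 read in GM12878, 59, 30 and 32 in HepG2, and 3 and 23 in K562. K562 overlapped GM12878 through replicate 3 of the latter. MT-ND2 fell by 1.42 ± 0.45 on the log2 scale in K562 against HepG2 (edgeR adjusted p 0.00877), a call that ended without HepG2 replicate 1 (adjusted p 0.0587) or without K562 replicate 1 (0.0630). Against GM12878 it was called without K562 replicate 2 alone (-2.39). MT-ND3 (positions 10059 to 10404, 346 bases), a small subunit, had 22 reads in all and was too low to test: 3, 3 and 1 in GM12878, 6, 3 and 3 in HepG2, 0 and 3 in K562.

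**Figure D2:**
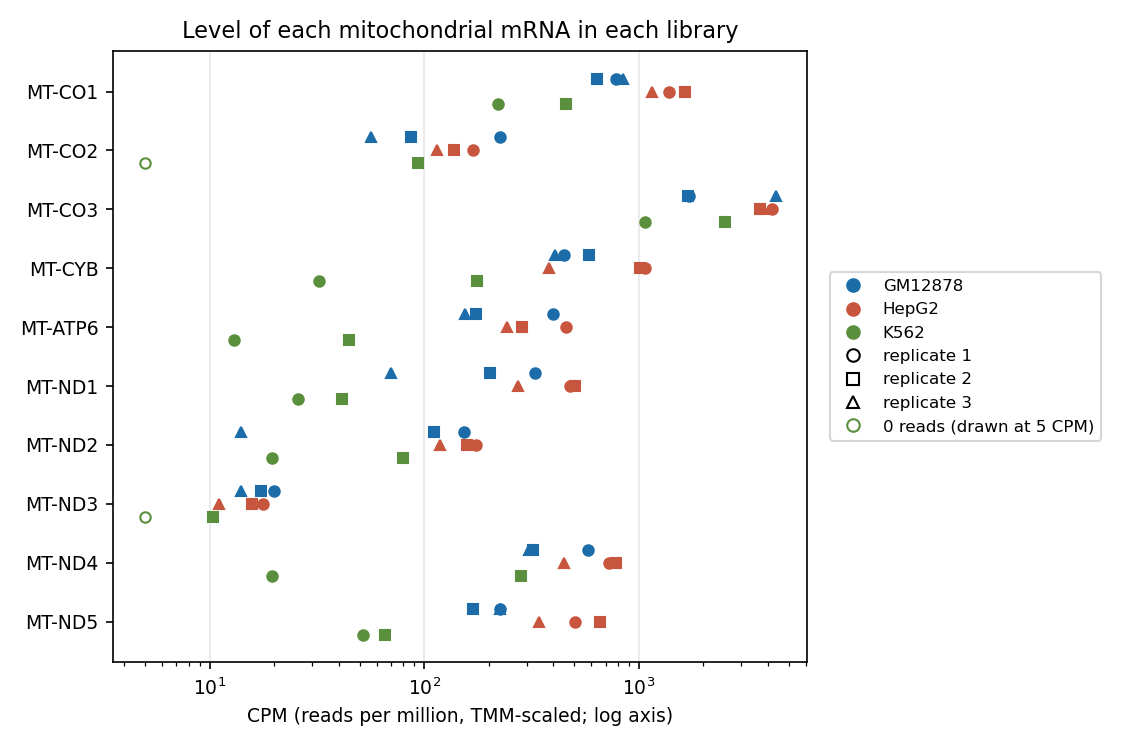
CPM of each of the 10 mitochondrial mRNAs in each library on a log axis, coloured by line, with the marker giving the replicate; open markers are libraries with 0 reads, drawn at 5 CPM. K562 libraries lie lowest for most mRNAs, and MT-CO3 lies highest in every library.

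In HepG2 against GM12878, 1 of 9 tested members was called higher, MT-ND5, and 0 lower, where 28.0% of the 4778 tested genes were called higher and 21.1% lower (49.1% in either direction). A call needed an edgeR adjusted p under 0.05 and a fitted change of at least 2-fold; 3 members met the p alone. The median log2 change of the 9 was 0.66, from 0.09 to 1.29, against 0.02 over all tested genes. All HepG2 libraries were above all GM12878 libraries for 2 of the 9, MT-ND5 and MT-CO1, against 34.8% of all tested genes, and below them for 0 of the 9, against 28.3%. The count of called members was thus below the share over all tested genes, and 9 members are too few to read more from it. The count was 4 without HepG2 replicate 3 and 2 without GM12878 replicate 1 or replicate 3.

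In K562 against GM12878, 4 of 9 tested members were called lower, MT-ATP6, MT-ND1, MT-ND5 and MT-CO1, and 0 higher, where 14.8% of tested genes were called lower and 13.9% higher (28.7% in either direction). The median log2 change was -1.26, from -2.92 to -0.48, against 0.00 over all tested genes. For 6 of the 9 both K562 libraries were below all GM12878 libraries, against 25.0% of all tested genes, and above them for 0, against 23.8%. The count of called members was 8 without K562 replicate 2 and 3 without GM12878 replicate 1 or replicate 3.

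In K562 against HepG2, 6 of 9 were called lower, the same 4 with MT-CYB and MT-ND2, and 0 higher, where 26.7% of tested genes were called lower and 17.4% higher (44.1% in either direction). The median log2 change was -1.99, from -3.53 to -1.09, against -0.07 over all tested genes. For all 9 both K562 libraries were below all HepG2 libraries, against 36.4% of all tested genes and 27.6% above. The 2 K562 comparisons share the K562 libraries, so their agreement in direction is not independent.

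**Figure D3:**
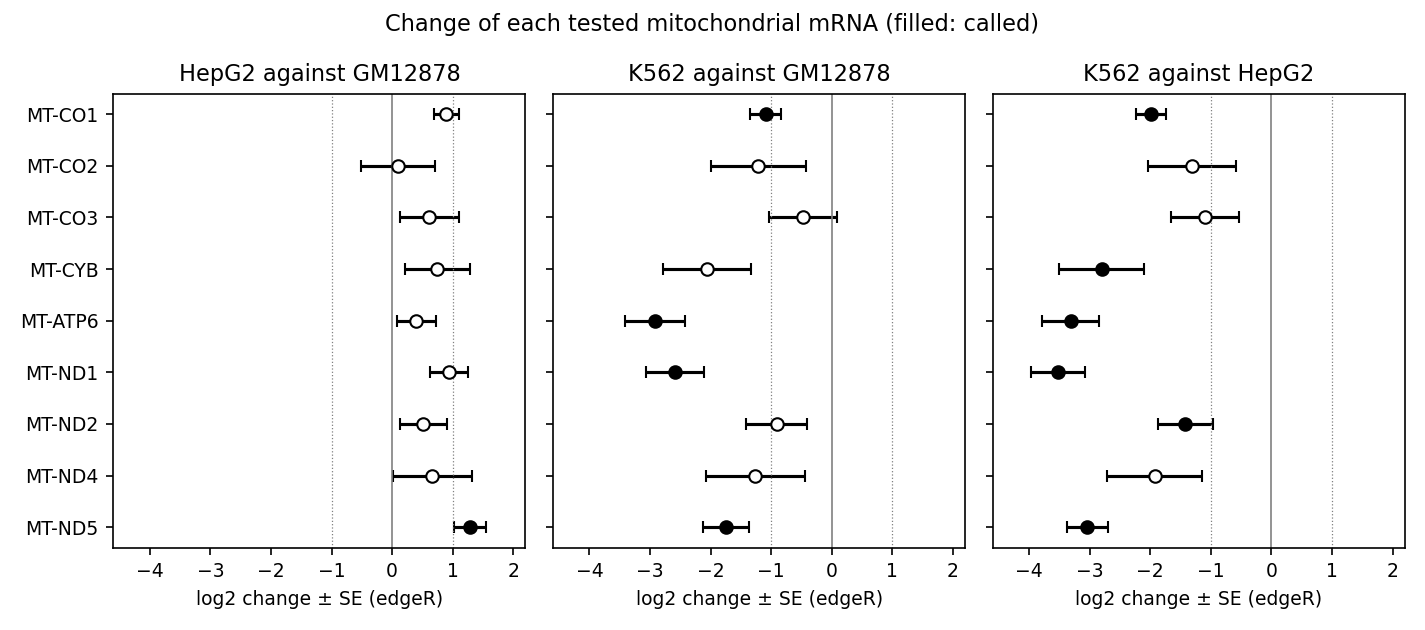
Fitted log2 change ± SE from edgeR for the 9 tested mRNAs in each comparison (first line minus second); filled points were called and dotted lines mark a 2-fold change. Called points number 1, 4 and 6 from left to right.

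Per kilobase of annotated length, MT-CO3 led in all 3 lines without overlap with the next gene. Its GM12878 libraries stood at 2185, 2167 and 5541 CPM per kilobase, so that the mean of 3298 ± 1943 (SD) rested on replicate 3. Mean and SD were 4934 ± 330.0 CPM per kilobase in the 3 libraries of HepG2 and 2287 ± 1303 in the 2 of K562. MT-CO1 followed at 489 ± 67.5, 902 ± 157 and 219 ± 108 CPM per kilobase. In GM12878 and HepG2 the order then ran MT-CYB, MT-ATP6, MT-ND4 and MT-ND1, from 421 ± 82.9 to 209 ± 134 CPM per kilobase in GM12878 and from 720 ± 334 to 437 ± 132 in HepG2. From MT-CO1 down, neighbours in the order overlapped between libraries, except MT-ND2 and MT-ND3 in HepG2. In K562 MT-ATP6 stood 7th and MT-ND1 8th, at 42.5 ± 33.1 and 35.2 ± 11.4 CPM per kilobase, behind MT-ND2. MT-ND3 was last in every line, at 49.6 ± 8.62, 43.0 ± 9.99 and 15.0 ± 21.2 CPM per kilobase. The Spearman correlations of the level per kilobase with annotated length and with gene start over the 10 genes were 0.20 and 0.079, given as a description. The order depends on the scaling to length. By mean CPM alone, MT-ND4 stood at 403 in GM12878 and 653 in HepG2, above MT-ATP6 at 243 and 329. MT-ND1 was at 200 and 418 CPM, so it was above MT-ATP6 in HepG2 only. Whether counts of direct RNA reads rise with transcript length was not tested.

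The make-up of the mitochondrial mRNA reads differed between libraries of 1 line, most of all in GM12878. MT-CO3 was 35.2%, 42.4% and 67.5% of the reads of the 10 in GM12878, 45.5%, 41.3% and 55.2% in HepG2, and 73.7% and 66.8% in K562. GM12878 replicate 3 fell inside the K562 range and outside that of its own line. For every 100 MT-CO3 reads there were 19.1, 12.0 and 1.62 MT-ND1 reads in GM12878, 11.5, 13.7 and 7.18 in HepG2, and 2.42 and 1.65 in K562. The same ratio for MT-CO1 was 45.5, 37.7 and 19.4 in GM12878, 33.2, 44.9 and 30.4 in HepG2, and 20.6 and 18.1 in K562. Against MT-CO3, GM12878 replicate 3 thus had ratios close to those of K562 for both genes, and the rRNA share of reads moved in the same way. HepG2 replicate 3 had the highest MT-CO3 share of its line and the lowest of both ratios. The depth of GM12878 replicate 3 was the lowest of the 8, while the mean model length over all its reads, 1298 bases, lay inside the range of the others. What these libraries share was not tested.

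**Figure D4:**
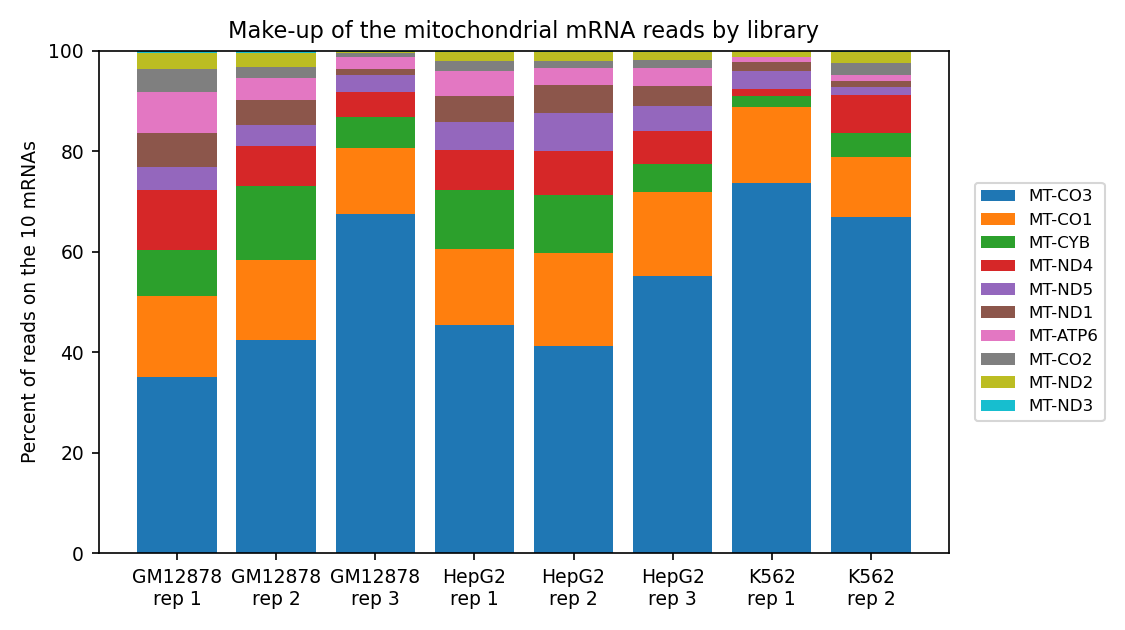
Percent of the reads on the 10 mitochondrial mRNAs that fell on each, 1 column per library. MT-CO3 makes up 66.8% to 73.7% in GM12878 replicate 3 and both K562 libraries and 35.2% to 55.2% in the other 5.

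Most member reads fell on the annotated transcript. The tables list 78 models for the 10 genes, 77 of them with reads, and 8014 of 9821 reads (81.6%) were on known models, against 42.9% over all annotated genes. MT-CO3 alone held 4815 of these 8014 reads. The share over all annotated genes includes spliced genes, so the 2 shares are not of like genes. Models that TALON classed as genomic, a class for reads that match no annotated splice pattern, held 17.9%. Spliced models numbered 23 and held 69 reads, 63 of them on MT-CO1, in a genome whose genes have no introns in the annotation.

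Longer genes had lower known shares. Pooled over all libraries it was 100% for MT-ND3 and MT-ATP6, 99.5% for MT-CO2, 98.7% for MT-CO3, 96.3% for MT-ND2, 93.1% for MT-CYB and 92.0% for MT-ND1. It was 64.8% for MT-ND4, 42.4% for MT-CO1 and 2.43% for MT-ND5, the longest 3. The Spearman correlation of known share with annotated length over the 10 genes was -0.96, given as a description of genes that share libraries and strand. MT-CO1 and MT-ND5, the lowest in known share, are also the 2 that are followed by a gene on the other strand. For these 2, length and neighbour cannot be told apart. Among the 8 followed by a gene on the same strand, the share was lowest in MT-ND4, the longest of them, at 64.8%. MT-ND5 had 12 reads on its known model of 1812 bases. Its other models included 1 of 2021 bases with 150 reads, 1 of 1475 bases with 145 and 1 of 526 bases with 125.

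Among models other than the known one, 14 had at least 20 reads, of which 10 were shorter than the annotated transcript and 4 longer. The most read was a MT-CO1 model of 1053 bases, with 36, 24 and 20 reads in GM12878, 161, 107 and 126 in HepG2, and 12 and 48 in K562. It was seen in all 8 libraries, as were the MT-ND5 models of 2021, 1475 and 526 bases. A MT-ND4 model of 658 bases had 209 reads, in 7 of the 8 libraries, and none in K562 replicate 1, where MT-ND4 had 3 reads in all. A MT-CO3 model of 1722 bases, with 46 reads, is longer than the 1625 bases from the start of MT-ATP8 to the end of MT-CO3. The tables give a model's length but not its position, so whether these models cover a neighbouring gene was not tested. A model's length is also not that of each read assigned to it.

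The known share did not pass the test between lines for any member. MT-CO1 had 48.4% of reads on its known model in GM12878, 39.9% in HepG2 and 48.8% in K562, over all libraries of each line. MT-ND4 had 66.5%, 63.6% and 69.4%, and MT-ND5 had 2.53%, 2.06% and 7.41%. MT-ND1 had 93.3%, 92.1% and 81.25%, the last from 16 reads. Its shifts in K562 were -12.0 percentage points against GM12878 and -10.9 against HepG2. Without K562 replicate 1 they were -1.59 and -0.478. In a count model of known against other reads (edgeR's diffSpliceDGE), 0 of the 8 members tested were called in each comparison, where 0.295% of 3389 genes were called in HepG2 against GM12878, 0.118% in K562 against GM12878 and 0.0885% in K562 against HepG2. The count of members at an unadjusted p under 0.05 was also 0 in each. On simulated data this test recovered 44%, 30.5% and 39% of shifts of 25 percentage points in these comparisons, so a shift of that size could be missed. MT-ATP6 and MT-ND3 had the known model alone and could not be tested.

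**Figure D5:**
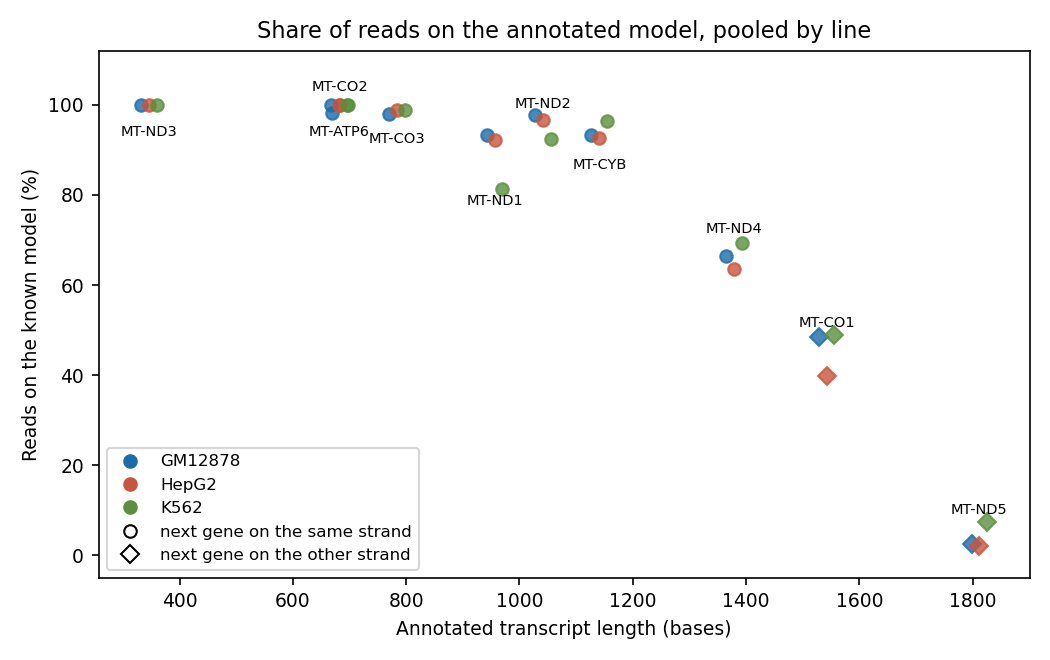
Percent of reads on the known model for each of the 10 mRNAs against annotated length in bases, by line, over all libraries of the line. Genes up to MT-CYB lie at 81.25% or above, and MT-ND4, MT-CO1 and MT-ND5 lie lower in all 3 lines.

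The mitochondrial rRNAs were also low in K562. MT-RNR1 had 321, 200 and 11 reads in GM12878, 394, 222 and 195 in HepG2, and 4 and 7 in K562. It fell by 5.57 ± 1.31 on the log2 scale in K562 against GM12878 (edgeR adjusted p 0.0246) and fell by 5.32 ± 1.30 in K562 against HepG2 (0.0185). MT-RNR2 had 506, 424 and 30 reads in GM12878, 1046, 550 and 463 in HepG2, and 30 and 178 in K562, and was not called, with edgeR adjusted p of 0.126 and 0.0690 for K562 against GM12878 and HepG2. MT-ND6, the protein gene on the other strand, had 9, 29 and 4 reads in GM12878, HepG2 and K562. Listed nuclear copies of the members had 12 reads in all, against 9821 on the members.

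The counts for the nuclear subunits of the same complexes stand beside 13.9% of all tested genes called higher and 14.8% lower in K562 against GM12878, and 17.4% and 26.7% in K562 against HepG2. Of 37 nuclear complex I genes tested, 3 were called higher and 2 lower in K562 against GM12878, with a median log2 change of 0.13. In K562 against HepG2, 5 were called higher and 1 lower, with a median of 0.21 against -0.07 over all tested genes. NDUFS5, an accessory subunit, rose by 1.38 on the log2 scale in that comparison, from 352 ± 49.4 CPM (SD, n = 3) to 926 ± 177 CPM (n = 2). Of 9 nuclear complex III genes 2 were called higher in K562 against HepG2, UQCRH at a log2 change of 1.59 and CYC1, cytochrome c1, at 1.01. Of 11 complex IV genes 1 was called higher, COX7B, at 1.05, and of 15 complex V genes 2, ATP5MC2 at 1.09 and ATP5PB at 1.18. The count called lower in K562 against HepG2 was 0 in each of the last 3 groups. In K562 against GM12878 the counts were 0 of 9, 0 of 11 and, in complex V, 1 of 15 higher. Several of these counts are near or below the shares over all tested genes, and the difference from the mitochondrial genes was not tested.

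Set against these partners, the mitochondrial reads were fewest in K562 on average for all 4 complexes. For every 100 reads on nuclear complex I genes, the 5 mitochondrial ones had 8.72 ± 3.66 in the 3 GM12878 libraries, 17.4 ± 5.97 in the 3 HepG2 libraries and 2.48 ± 2.13 in the 2 K562 libraries (mean ± SD). For complex III these were 13.0 ± 2.67, 21.8 ± 11.5 and 2.0 ± 1.95, and for complex V 2.57 ± 1.53, 3.66 ± 1.42 and 0.25 ± 0.196. For complex IV they were 41.1 ± 18.3, 70.6 ± 11.4 and 23.2 ± 10.3, and K562 replicate 2, at 30.5, lay above GM12878 replicate 2, at 27.3. GM12878 replicate 3 was at 61.8 there, against 34.2 and 27.3 in its fellow libraries. In the other 3 complexes both K562 libraries lay below all others. These ratios compare reads, not molecules of full length, and carry no test.

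Genes that make and handle mitochondrial RNA were called in both directions, in lists too short to set against the shares over all tested genes (28.0% higher and 21.1% lower in HepG2 against GM12878, 13.9% and 14.8% in K562 against GM12878, 17.4% and 26.7% in K562 against HepG2). Of 4 tested transcription genes, 2 were called higher and 1 lower in HepG2 against GM12878, 1 higher and 0 lower in K562 against GM12878, and 0 higher and 1 lower, TFB1M at -1.26, in K562 against HepG2. POLRMT, the mitochondrial RNA polymerase, stood at 42.1 ± 15.1 CPM in GM12878, 133 ± 41.0 in HepG2 and 133 ± 13.1 in K562, and was called higher in both lines against GM12878, at log2 changes of 1.53 each (edgeR adjusted p 0.00114 and 0.00522). Of 13 tested RNA processing and stability genes, 2 were higher and 4 lower in HepG2 against GM12878, 1 higher and 1 lower in K562 against GM12878, and 3 higher and 0 lower in K562 against HepG2. REXO2, an exonuclease that degrades very short RNAs in mitochondria, was at 8.56 ± 7.52 CPM in GM12878, 67.9 ± 5.49 in HepG2 and 178 ± 41.9 in K562. Of 6 translation and insertion genes, 2 were higher and 1 lower in HepG2 against GM12878, 0 higher and 1 lower in K562 against GM12878, and 1 higher and 2 lower in K562 against HepG2. OXA1L, which inserts mitochondrially made proteins into the inner membrane, was at 113 ± 29.2, 534 ± 16.5 and 142 ± 8.54 CPM in GM12878, HepG2 and K562. Of 4 DNA replication genes, 0 were higher and 1 lower in HepG2 against GM12878, and 1 was higher and 0 lower in K562 against GM12878. In K562 against HepG2 2 were higher and 0 lower, among them SSBP1, the single-strand binding protein of mitochondrial DNA, at 664 ± 125 against 129 ± 29.98 CPM.

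The genes whose levels were most like the summed level of the 10 mRNAs over the 8 libraries were TCF25, IP6K2, TTC38, ACTN1 and GORASP2, with Pearson correlations of 0.979 to 0.963 among 3387 genes ranked. MT-RNR2 and MT-RNR1 came 444th and 613th, at 0.699 and 0.674. These values are a description of 8 libraries from 3 lines, which differ in many genes at once.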

How the data were processed

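Total RNA was read by direct RNA sequencing, per the labels. The submitters' processing notes name minimap2 and the build hg38. The deposited TALON tables hold unnormalized read counts per transcript model, per the file headers, along with each model's length and exon number as other values the authors deposited. No TALON version is stated in those sources. The members and gene lists were chosen with earlier results of these data known.

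Counts were summed by annotated gene, filtered with filterByExpr and scaled by TMM. The two-sided quasi-likelihood test of edgeR 4.0.16 in R 4.3.3 (glmQLFTest after a robust glmQLFit) was run in 1 fit over 8 libraries, with Benjamini-Hochberg adjustment over 4778 genes in each comparison. A call needed an adjusted p under 0.05 and an absolute log2 change of at least 1. Each SE was derived from the log2 change and its F statistic and is approximate. CPM used TMM-scaled totals of tested genes; shares used all reads of the table. Known-model shares were tested with diffSpliceDGE where every line had 10 or more reads of the gene, with calls at adjusted p under 0.05 and a shift of 10 percentage points. Read totals were 70374 to 461497, and 3 counts set the floor. Intervals and floors cover counting error only. Coordinates and sequences came from GENCODE 29 on GRCh38.

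On simulated data the gene test recovered 56%, 47% and 54% of 2-fold changes and 97%, 92% and 97% of 4-fold changes, over 4014, 3912 and 3995 genes in HepG2 against GM12878, K562 against GM12878 and K562 against HepG2. Recovery counted an adjusted p under 0.05 in the right direction, without the fold threshold of a call, so recovery of calls was not measured. Changed genes were drawn only from those with enough expected reads in the smallest library. All other genes had the same mean in every line. Of the genes that passed this p, 2.55%, 6.71% and 4.43% were false. Alternatives were DESeq2 1.42.0, other scalings, no filter, known models only, only the lines compared, a replicate block and each library left out. All 10 members are named. From each gene list, up to 3 called genes per comparison were eligible for naming, and likeness was ranked by Pearson correlation among genes with a mean of at least 50 CPM.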

Additional observations from a re-analysis of the deposited data

How the results depend on the processing

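The count of called members in HepG2 against GM12878, 1 in the main analysis, was 0 with library totals only, 3 with no filter on low counts, 2 with DESeq2 and 2 with the replicate block, and 1 to 4 with a library left out (4 without HepG2 replicate 3, 2 without GM12878 replicate 1 or 3). In K562 against GM12878 it was 3 to 6 over the other settings against 4, and 3 to 8 with a library left out (8 without K562 replicate 2). In K562 against HepG2 it was 5 to 9 against 6, and 5 to 8 with a library left out. Library totals moved the median log2 change of all tested genes from 0.02 to -0.33 in HepG2 against GM12878 and from -0.07 to 0.24 in K562 against HepG2. The cause of these changes was not tested.

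Deviations from the line means over all tested genes were correlated between same-numbered libraries. The values were 0.0305, 0.0096 and 0.0081 in HepG2 against GM12878, -0.042 in K562 against GM12878 and 0.016 in K562 against HepG2. With 2 libraries per line, other pairs in the K562 comparisons can differ only in sign, so these values cannot settle whether replicate numbers pair the libraries. Among the mitochondrial reads, replicate 3 had the lowest rRNA share and the highest MT-CO3 share in both GM12878 and HepG2. Whether this reflects pairing was not tested. With the replicate block 2, 6 and 8 members were called in the 3 comparisons.

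With known models only, the members took on average 0.960%, 1.27% and 0.469% of the reads on known models in GM12878, HepG2 and K562. That total is smaller than the library reads behind the shares given above, so the 2 sets of shares are not comparable. In HepG2 against GM12878 the log2 change reversed for MT-CO2 (-0.31) and MT-ATP6 (-0.015) with library totals, and that of MT-CO2 ran from -0.23 to 0.87 with a library left out. That of MT-CO3 in K562 against GM12878 ran from -1.19 to 0.16. Shifts in known share, none called, also changed sign with a library left out, in percentage points. In HepG2 against GM12878 they ran from -4.15 to 2.15 for MT-ND1, -3.31 to 0.861 for MT-ND2, -9.83 to 3.83 for MT-ND4, -1.16 to 0.510 for MT-ND5, -0.0897 to 1.83 for MT-CO3 and -4.18 to 1.92 for MT-CYB. In K562 against GM12878 they ran from -3.98 to 9.67 for MT-ND4, -5.91 to 4.16 for MT-CO1, -0.232 to 1.68 for MT-CO3 and -0.446 to 5.66 for MT-CYB, and in K562 against HepG2 from -0.368 to 0.202 for MT-CO3. Where K562 was left with 1 library, that library was assumed to vary like the other groups.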
